A study of Rattus norvegicus with 20 samples.

Results

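The genes described here make, break down and move coenzyme A (CoA) in rat liver, and they were followed over 4 diets. Every probe set whose platform annotation gave the symbol Vnn1, Pank1, Pank3, Coasy, Nudt7, Nudt19 or Slc25a42 was taken. This gave 7 genes and 10 probe sets, of 14217 genes and 20826 probe sets with 1 symbol. Pank3 had 4 probe sets and each of the other genes had 1. All 10 probe sets passed the filter on low values on all 20 arrays, in every diet.

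The study fed male Sprague-Dawley rats 3 lignans of sesame and measured liver RNA on Affymetrix arrays, with 1 array per rat. The groups were a diet with 0.2% sesamin, a diet with 0.2% episesamin, a diet with 0.2% sesamolin and a diet with no lignan, called lignan-free here. Each was fed for 15 d. All rats were 4 weeks old on arrival, shared an acclimatisation of 7 d on a commercial diet and carried no labelled genetic change. Each diet had 7 rats, and 5 were arrayed because the heaviest and the lightest of each diet were left out. The lignans are compounds found in sesame seed or its oil. Sesamin and episesamin are stereoisomers, and sesamolin carries an additional oxygen between an aryl group and the furofuran core.

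CoA carries acyl groups as thioesters in fatty acid oxidation, fatty acid synthesis and the citric acid cycle. It is built from the vitamin pantothenate. Pantothenate kinases (the Pank genes) catalyse the first and rate-controlling step, and CoA synthase (Coasy) catalyses the closing steps. Nudt7 and Nudt19 encode Nudix hydrolases that split CoA and acyl-CoA, a role described in mouse tissues, with Nudt7 placed in peroxisomes of liver. Vnn1 encodes a pantetheinase, which cleaves pantetheine, a product of CoA breakdown, to pantothenate and cysteamine. Slc25a42 encodes a carrier that brings CoA into the mitochondrial matrix. Vnn1 and many enzymes of fatty acid oxidation are known targets of the nuclear receptor PPAR-alpha in rodent liver.

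Promoters are shown for Nudt7, which was higher in all 3 lignan diets, and for Pank1 and Pank3, the pantothenate kinases that differed from the lignan-free diet in opposite directions in sesamolin livers. The sequences are RefSeq's, in build GRCr8, and are the 250 bases before an annotated transcript start, printed 5′ to 3′ on the strand of the gene. RefSeq lists further transcripts of Pank1 and Nudt7 with other starts. The Pank1 window lies inside the annotated gene, chr1:241737371-241808126, and the Nudt7 window runs past the first base of its gene, chr19:59034808. The Pank3 window ends just before its gene. Capitals mark the core of the GC box, GGGCGG, searched on both strands. It reads CCGCCC wherever it was found in these windows, and neighbouring matches can overlap. The table held 6 of the 7 members and not Vnn1.
Nudt7: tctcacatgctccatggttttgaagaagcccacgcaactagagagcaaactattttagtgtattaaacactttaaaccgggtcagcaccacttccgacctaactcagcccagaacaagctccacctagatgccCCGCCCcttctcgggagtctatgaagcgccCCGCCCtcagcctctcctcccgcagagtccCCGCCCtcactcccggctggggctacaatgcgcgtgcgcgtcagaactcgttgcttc
Pank1: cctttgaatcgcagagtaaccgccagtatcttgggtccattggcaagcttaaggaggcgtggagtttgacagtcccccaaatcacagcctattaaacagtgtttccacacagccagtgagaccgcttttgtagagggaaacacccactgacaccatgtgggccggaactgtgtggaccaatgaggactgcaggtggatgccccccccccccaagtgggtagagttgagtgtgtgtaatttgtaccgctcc
Pank3: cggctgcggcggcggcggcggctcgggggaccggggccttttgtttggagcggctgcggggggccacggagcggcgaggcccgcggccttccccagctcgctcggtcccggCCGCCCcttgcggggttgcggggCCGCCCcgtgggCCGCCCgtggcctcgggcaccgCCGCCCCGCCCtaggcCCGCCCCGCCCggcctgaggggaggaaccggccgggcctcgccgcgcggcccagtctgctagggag
The Nudt7 window lies at chr19:59034638-59034887 on the plus strand, the Pank1 window at chr1:241806464-241806713 on the minus strand and the Pank3 window at chr10:20732941-20733190 on the plus strand. The Pank3 window held 7 matches to the core and was 82.8% G and C. The Nudt7 window held 3 matches at 56.8% G and C, and the Pank1 window held 0 at 53.6%. The median window of 33469 promoters was 51.2% G and C, and 30.5% of them held the core, against 5 of the 6 members. This motif was picked after the windows had been seen. A direct repeat of the nuclear receptor hexamer, AGGTCANAGGTCA, the element to which PPAR-alpha binds with RXR, was searched on both strands in windows of 300 bases. With every base of both hexamers matched it stood in 0.0538% of all promoters, and with up to 2 mismatches in 3.77%. The hexamer AGGTCA alone stood in 16.2%. None of the 6 member windows held any of the 3, which says only that these letters are not in these windows.

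The deposited values were intensities on arrays that had not been set to a common scale: array means ran from 159 to 271. By diet they averaged 236 in sesamin, 213 in episesamin, 221 in sesamolin and 247 in lignan-free livers. The arrays were therefore quantile normalized, and levels below are normalized intensities in arbitrary units. Tests were made with limma on log2(intensity + 5.85), so a log2 change or a fold change here is on that scale. A gene passed the test where its p-value, adjusted by the Benjamini-Hochberg method over 11576 genes, was below 0.05. Correlations between rats of a diet, over the 15894 probe sets that passed the filter on low values, were 0.953 to 0.977. The summed level of 7 tested hepatocyte markers, of 8 listed, had medians of 82993 in sesamin livers, 82773 in episesamin livers and 83075 in sesamolin livers, against 82280 in lignan-free livers, and none of them passed by limma in any lignan diet (0, 1 and 1 at an unadjusted p below 0.05). These markers lie near the top of the arrays, with mean levels from 9144 (Cyp2e1) to 14005 (Alb). Quantile normalization gives every array the same top values, so this sum can hardly show a change in the share of hepatocytes. Some markers of other cell types differed between the diets. The summed level of 8 Kupffer cell markers, of 10 listed, was 3588 to 5498 in sesamin livers, 3661 to 4546 in episesamin livers and 2582 to 4153 in sesamolin livers, against 4877 to 5780 in lignan-free livers. Of these 8 markers, 0, 2 and 6 passed in the sesamin, episesamin and sesamolin diets, all of them lower, and 1, 5 and 8 had an unadjusted p below 0.05. Of all genes tested, 0.0346%, 2.21% and 2.95% passed as lower in these diets. The sum of 4 endothelial markers, of 6 listed, was 2321 to 2593 in sesamin, 1938 to 2292 in episesamin and 1928 to 2401 in sesamolin livers, against 2470 to 2914 in lignan-free livers, and 0, 2 and 2 of them passed in these diets, all lower. The sum of 3 bile duct markers, of 5 listed, was 271 to 326 in sesamolin livers, against 190 to 254 in lignan-free livers, and 0 of them passed by limma (1 at an unadjusted p below 0.05). In sesamin and episesamin livers this sum was 170 to 246 and 177 to 285, and 0 of the 3 passed there. The sum of 7 stellate cell and fibroblast markers was 2532 to 3588 in sesamolin livers, against 3510 to 5557 in lignan-free livers, and 0 passed (3 at an unadjusted p below 0.05). In sesamin and episesamin livers this sum was 3096 to 3665 and 3057 to 3681, and 0 passed there. Of 4 lymphocyte and neutrophil markers and 2 red blood cell markers, 0 passed in any lignan diet. Their sums in each lignan diet overlapped those of lignan-free livers. Cela1, an elastase gene of the exocrine pancreas and the only tested one of 5 pancreas and adipocyte markers, passed as higher in episesamin livers, at 612 to 914, against 362 to 808 in lignan-free livers. The other pancreas markers, Cpa1 and Prss1, averaged 8.69 and 11.7 and failed the filter on low values. Cela1 alone therefore does not mark pancreas cells here. In whole liver, fewer cells of a type and less RNA per cell cannot be told apart, and the part of these cell types in the results below was not tested.

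All 3 lignan diets raised Vnn1 and Nudt7. Episesamin and sesamolin also raised Pank1 and Slc25a42, and both raised Vnn1, Nudt7 and Pank1 above their levels in sesamin livers. The margin of Pank1 between episesamin and sesamin was small. With no normalization between arrays, these differences from sesamin did not pass. Nor did the rises of Pank1 and Slc25a42 over the lignan-free diet, or that of Nudt7 in sesamin livers. Pank3 fell and Nudt19 rose in the sesamolin diet, each with a small margin. Coasy passed in no comparison.

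**Figure D1:**
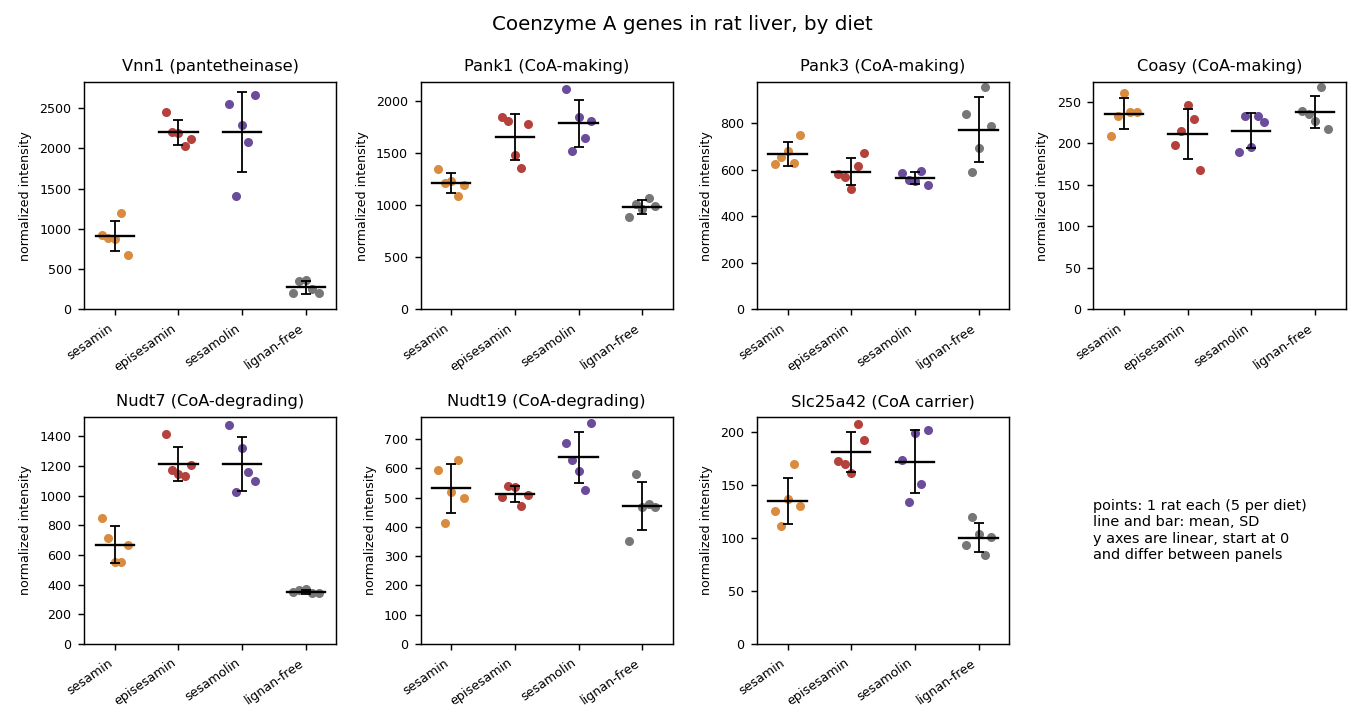
Normalized intensity (arbitrary units, linear axes from 0 that differ between panels) of the 7 CoA genes in single livers, with 1 point per rat, 5 rats per diet, and the mean and SD as line and bar. For Vnn1, Nudt7 and Pank1 every rat of the 3 lignan diets lies above every lignan-free rat, and for Coasy the 4 diets overlap.

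The pantetheinase gene Vnn1 had the largest change of the 7 in each lignan diet. In rats 1 to 5 its level was 919, 878, 873, 1193 and 675 in sesamin livers and 2458, 2205, 2190, 2035 and 2114 in episesamin livers. It was 2560, 1411, 2288, 2075 and 2667 in sesamolin livers, against 193, 343, 358, 252 and 200 in lignan-free livers. No rat of a lignan diet overlapped the lignan-free rats, and no rat of the episesamin or sesamolin diets overlapped the sesamin rats. Against the lignan-free diet Vnn1 rose by 1.75 ± 0.19 on the log2 scale (SE, n = 5 per diet) in sesamin livers, 3.37-fold (limma adjusted p = 2.65e-05). The rise was 3.05 ± 0.19, 8.27-fold, in episesamin livers (limma adjusted p = 2.62e-09) and 3.02 ± 0.19, 8.09-fold, in sesamolin livers (limma adjusted p = 3.14e-09). Rats of a diet were not equally spread. The SD of Vnn1 on the log2 scale was 0.29 in sesamin, 0.10 in episesamin and 0.37 in sesamolin livers, against 0.41 in lignan-free livers. The lowest sesamolin rat, rat 2, stood at 1411, and the other 4 were between 2075 and 2667. Its array had the lowest mean intensity of the 20 before normalization, 159. The same rat was the lowest of the sesamolin rats for Pank1, Nudt7 and Slc25a42.

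Of the CoA-degrading genes, Nudt7 changed in every lignan diet. Its levels in rats 1 to 5 were 849, 717, 554, 554 and 669 in sesamin livers and 1416, 1173, 1147, 1131 and 1208 in episesamin livers. They were 1474, 1022, 1320, 1161 and 1100 in sesamolin livers, against 347, 363, 369, 342 and 340 in lignan-free livers. The lignan-free rats were close together, and each lignan rat was above all of them. Nudt7 rose by 0.90 ± 0.12 (SE, n = 5 per diet) in sesamin livers, 1.86-fold (limma adjusted p = 0.000264). It rose by 1.77 ± 0.12, 3.40-fold, in episesamin livers (limma adjusted p = 7.00e-09) and by 1.76 ± 0.12, 3.38-fold, in sesamolin livers (limma adjusted p = 7.38e-09). The sesamin rise ended under a scaling by array medians (limma adjusted p = 0.0513) and with no normalization between arrays (0.383).

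Nudt19, the other CoA-degrading member, changed far less than Nudt7. Its levels were 595, 414, 520, 629 and 499 in sesamin livers and 503, 540, 536, 473 and 509 in episesamin livers. They were 687, 629, 593, 527 and 756 in sesamolin livers, against 351, 582, 469, 479 and 468 in lignan-free livers. Every lignan diet overlapped the lignan-free diet, in which rat 1 was lowest and rat 2 highest. Its log2 change was 0.18 ± 0.13 in sesamin livers (limma adjusted p = 0.836) and 0.14 ± 0.13 in episesamin livers (limma adjusted p = 0.599). In sesamolin livers Nudt19 passed at 0.44 ± 0.13, 1.36-fold (limma adjusted p = 0.0491). That call rests on most of the arrays: it ended when any rat other than sesamin 2, sesamin 4, sesamolin 4 and lignan-free 2 was left out, 16 of 20 in all, with a log2 change of 0.35 to 0.47 and an adjusted p of up to 0.126. It also ended in 13 of 16 other settings.

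The CoA-making genes did not move as a group. Pank1 passed as higher in the episesamin and sesamolin diets, Pank3 passed as lower in the sesamolin diet alone, and Coasy passed in none. The levels of Pank1 were 1345, 1212, 1231, 1083 and 1197 in sesamin livers and 1845, 1810, 1481, 1356 and 1781 in episesamin livers. They were 2119, 1522, 1845, 1646 and 1810 in sesamolin livers, against 885, 1007, 960, 1068 and 987 in lignan-free livers. The lignan-free rats lay below every lignan rat, although the lowest sesamin rat (1083) and the highest lignan-free rat (1068) were close. Pank1 rose by 0.74 ± 0.10 (SE, n = 5 per diet) in episesamin livers, 1.67-fold (limma adjusted p = 0.000171), and by 0.86 ± 0.10, 1.81-fold, in sesamolin livers (limma adjusted p = 3.21e-05). In sesamin livers its log2 change was 0.30 ± 0.10 and did not pass (limma adjusted p = 0.413). With no normalization between arrays the episesamin and sesamolin rises of Pank1 ended, at 0.49 and 0.65 (limma adjusted p = 0.211 and 0.125). RefSeq lists 1 pseudogene of Pank1 and 2 of Pank3, and signal from near-identical copies cannot be told apart from that of the genes.

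Pank3 is described by its probe set of highest mean level, 1374987_at. Its levels were 625, 655, 682, 626 and 748 in sesamin livers and 579, 569, 518, 616 and 673 in episesamin livers. They were 587, 553, 553, 593 and 535 in sesamolin livers, against 837, 587, 694, 953 and 786 in lignan-free livers. The lignan-free rats were spread widely, and their lowest, rat 2, lay within the range of the episesamin and sesamolin diets. Pank3 fell by 0.43 on the log2 scale (SE 0.11, n = 5 per diet) in sesamolin livers, a change of -25.8% (limma adjusted p = 0.0241). Its log2 change was -0.37 ± 0.11 in episesamin livers (limma adjusted p = 0.0557) and -0.19 ± 0.11 in sesamin livers (limma adjusted p = 0.746). The sesamolin call ended without sesamolin rat 3 or 5 or without lignan-free rat 1, 4 or 5, with a log2 change of -0.42 to -0.35 and an adjusted p of up to 0.0639. Of 16 other settings, 5 ended it. Among them were no normalization between arrays (limma adjusted p = 0.117) and only the sesamolin and lignan-free diets in the fit (0.0941). Others were leaving out the arrays of mean intensity below 200 (limma adjusted p = 0.134) or the arrays numbered 1 (0.102). In episesamin livers Pank3 passed without episesamin rat 5 (-0.42, limma adjusted p = 0.0469) or without lignan-free rat 2 (-0.46, limma adjusted p = 0.012). It also passed with numbered rats as a block (limma adjusted p = 0.0475), with median scaling (0.0488), with a filter at the 60th percentile (0.0362) and with trended and robust eBayes (0.031).

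The other 3 probe sets of Pank3 were dimmer and did not all move alike. In sesamolin livers 1381705_at had levels of 126, 142, 108, 156 and 151, against 162, 153, 163, 263 and 193 in lignan-free livers, a log2 change of -0.42 ± 0.15. Its 2-sided exact permutation test gave p = 0.0159, as did that of 1374987_at, where the smallest p that 5 rats against 5 allow is 0.00794. With all 15894 probe sets tested in 1 limma fit, the adjusted p was 0.139 for 1381705_at and 0.0323 for 1374987_at, where 4.86% of all probe sets passed. The log2 changes of 1394706_at and 1391348_at were -0.11 ± 0.18 and -0.12 ± 0.18 (exact permutation p = 0.587 and 0.46). In episesamin livers the 3 dimmer probe sets stood at -0.21 ± 0.15, 0.15 ± 0.18 and -0.30 ± 0.18 (1381705_at, 1394706_at and 1391348_at), so 1 of the 4 pointed up. When the mean of the 4 probe sets stood for the gene, the sesamolin change was -0.27 (limma adjusted p = 0.22).

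**Figure D2:**
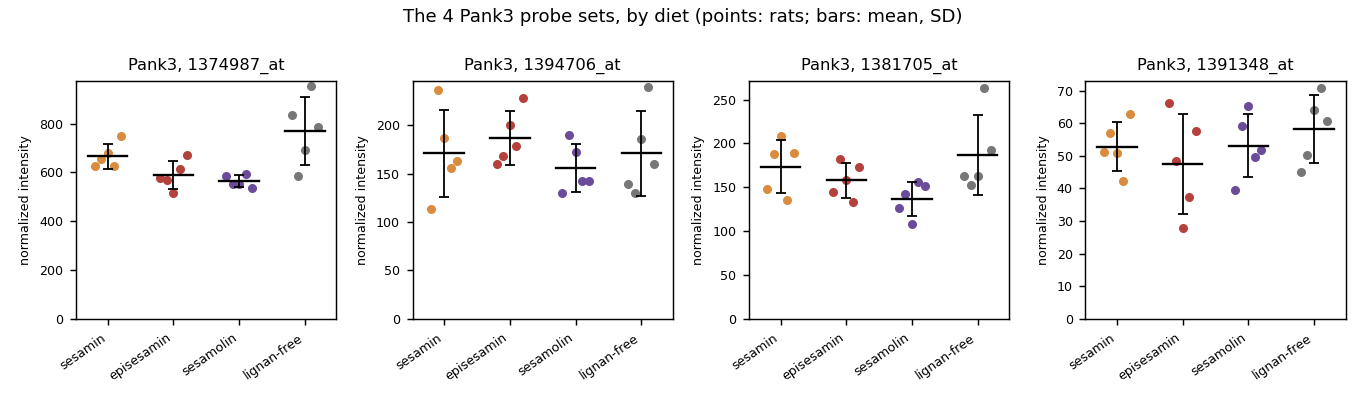
Normalized intensity (arbitrary units, linear axes from 0) of the 4 probe sets of Pank3 by diet, with 1 point per rat and the mean and SD of 5 rats. For 1374987_at the sesamolin rats lie between 535 and 593 and 4 of the 5 lignan-free rats lie between 694 and 953. The dimmest, 1391348_at, overlaps between all diets.

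Coasy levels were 208, 233, 261, 238 and 238 in sesamin livers and 198, 215, 246, 229 and 167 in episesamin livers. They were 190, 233, 196, 233 and 226 in sesamolin livers, against 239, 236, 227, 269 and 218 in lignan-free livers. The 4 diets overlapped throughout. The log2 changes were -0.01 ± 0.10 in sesamin, -0.17 ± 0.10 in episesamin and -0.14 ± 0.10 in sesamolin livers, and limma adjusted p-values were 0.992, 0.364 and 0.468. The 95% intervals were -0.22 to 0.20 in the sesamin, -0.39 to 0.04 in the episesamin and -0.35 to 0.07 in the sesamolin diet.

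Slc25a42, the mitochondrial CoA carrier, was raised by episesamin and sesamolin. Its levels were 125, 111, 137, 170 and 130 in sesamin livers and 173, 169, 161, 208 and 192 in episesamin livers. They were 173, 134, 199, 151 and 201 in sesamolin livers, against 93.4, 119.7, 103.5, 83.4 and 100.5 in lignan-free livers. Sesamin rat 2 lay among the lignan-free rats, and no episesamin or sesamolin rat did. Slc25a42 rose by 0.82 ± 0.13 (SE, n = 5 per diet) in episesamin livers, 1.76-fold (limma adjusted p = 0.000593), and by 0.74 ± 0.13, 1.67-fold, in sesamolin livers (limma adjusted p = 0.00168). Its log2 change in sesamin livers was 0.40 ± 0.13 (limma adjusted p = 0.362). With no normalization between arrays the episesamin and sesamolin rises ended, at 0.53 and 0.48 (limma adjusted p = 0.185 and 0.241).

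**Figure D3:**
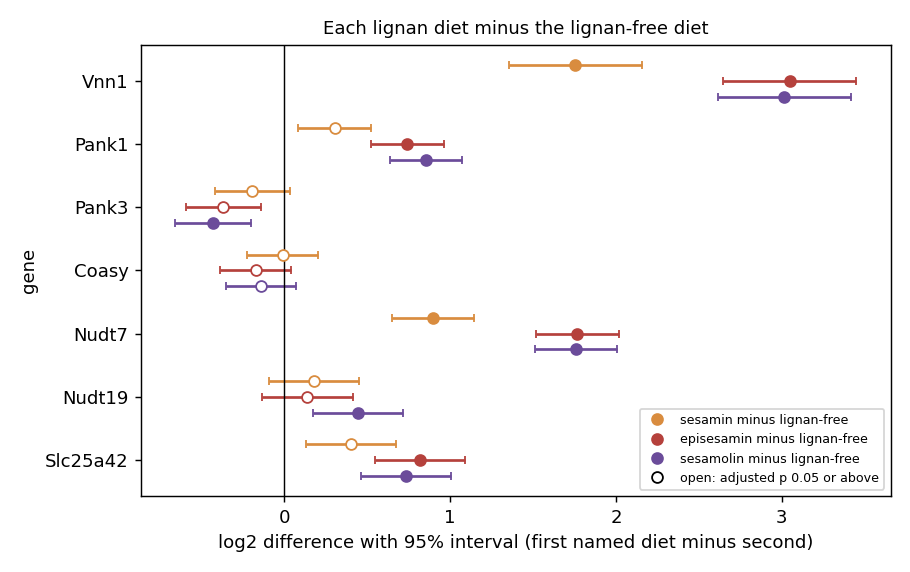
Log2 difference of each lignan diet minus the lignan-free diet (x axis) for the 7 CoA genes (y axis), with 95% intervals from the limma fit over 20 arrays. Filled points passed at an adjusted p below 0.05 and open points did not. Vnn1 and Nudt7 lie farthest to the right, and Pank3 and Coasy lie at or left of 0.

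By count, 2 of the 7 genes were higher and 0 lower in sesamin livers, where 0.397% of the 11576 genes tested were higher, 0.0346% were lower and 0.432% passed in either direction. In episesamin livers 4 were higher and 0 lower, against 2.91% of all genes higher, 2.21% lower and 5.12% in either direction. In sesamolin livers 5 were higher (Vnn1, Nudt7, Pank1, Slc25a42 and Nudt19) and 1 lower (Pank3), against 3.28% of all genes higher, 2.95% lower and 6.24% in either direction. The median log2 change of the 7 was 0.30, 0.74 and 0.74 in the sesamin, episesamin and sesamolin diets, and over all genes tested it was -0.01, -0.02 and -0.01. Groups of 5 rats did not overlap with the lignan-free rats for 3 members in the sesamin diet and for 4 in each of the other 2, where 1.91%, 6.85% and 6.93% of all genes did not overlap. At an unadjusted p below 0.05 there were 4, 5 and 6 of the 7 members in the sesamin, episesamin and sesamolin diets, and 862, 2279 and 2347 of all 11576 genes. The 3 comparisons share the same 5 lignan-free rats. The members were chosen with earlier results of these data known, so their counts and medians, here and below, cannot show an excess over all genes. In the limma F test over the 4 diets, Vnn1 (adjusted p = 3.99e-09), Nudt7 (8.50e-09), Pank1 (6.04e-05) and Slc25a42 (0.00158) passed, against 4.89% of all genes. Pank3 (limma adjusted p = 0.0621), Nudt19 (0.173) and Coasy (0.549) did not.

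Set side by side by role, the genes kept different sizes of change. The value of a role in a rat is the mean over its genes of the log2 level relative to the lignan-free mean of each gene, and it is given with the SD over 5 rats. The pantetheinase stood at 1.75 ± 0.29 in sesamin, 3.05 ± 0.10 in episesamin and 3.02 ± 0.37 in sesamolin livers, against a lignan-free SD of 0.41. The CoA-degrading pair stood at 0.54 ± 0.16 in sesamin, 0.95 ± 0.07 in episesamin and 1.10 ± 0.15 in sesamolin livers, against a lignan-free SD of 0.14. The carrier was at 0.40 ± 0.22 in sesamin, 0.82 ± 0.14 in episesamin and 0.74 ± 0.25 in sesamolin livers, against a lignan-free SD of 0.18. The 3 CoA-making members, Pank1, Pank3 and Coasy, averaged 0.03 ± 0.06 in sesamin, 0.07 ± 0.03 in episesamin and 0.10 ± 0.04 in sesamolin livers, against a lignan-free SD of 0.12. Other genes of CoA synthesis, such as Ppcs, described below, are not in this value. All CoA-degrading values of the lignan diets were above 0.40, and the lignan-free ones ran from -0.21 to 0.18. These values join a large change of Nudt7 (log2 0.90, 1.77 and 1.76 in the sesamin, episesamin and sesamolin diets) with a small one of Nudt19 (0.18, 0.14 and 0.44). The CoA-making values of every lignan diet lay inside the lignan-free range of -0.11 to 0.21. The mean near 0 of the CoA-making genes joins log2 changes above 0 for Pank1 with ones below 0 for Pank3, and no p is given for a role because its members were chosen with earlier results of these data known.

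**Figure D4:**
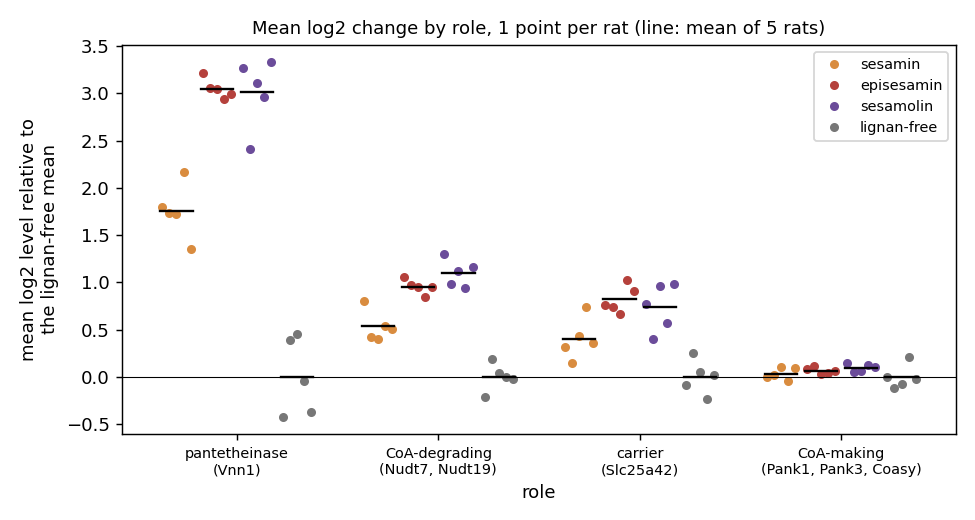
Mean log2 level of the genes of a role relative to the lignan-free mean (y axis), with 1 point per rat and a line at the mean of 5 rats, for the pantetheinase, the CoA-degrading genes, the carrier and the CoA-making genes (x axis). The pantetheinase is at 1.75 to 3.05 on average in the lignan diets, and the CoA-making members (Pank1, Pank3 and Coasy) are at 0.03 to 0.10.

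The lignans were compared with each other at the same dose and time, in 3 pairs. Episesamin, the stereoisomer of sesamin, gave higher levels than sesamin for 3 of the 7 genes and lower levels for 0, where 0.821% of all genes were higher, 0.406% were lower and 1.23% passed in either direction. Vnn1 averaged 2200 ± 159 in episesamin and 908 ± 186 in sesamin livers (SD, n = 5 each), a log2 difference of 1.29 ± 0.19 (SE; limma adjusted p = 0.00122). Nudt7 averaged 1215 ± 116 in episesamin and 668 ± 124 in sesamin livers, a difference of 0.87 ± 0.12 (limma adjusted p = 0.000734). Pank1 averaged 1655 ± 221 in episesamin and 1213 ± 93.7 in sesamin livers, a difference of 0.44 ± 0.10 (limma adjusted p = 0.0433). No episesamin rat overlapped a sesamin rat for these 3 genes, against 3.64% of all genes. The Pank1 difference ended when any rat other than sesamin 1, episesamin 3, episesamin 4, sesamolin 1, sesamolin 2 and lignan-free 1 was left out, with differences of 0.40 to 0.44 and an adjusted p of up to 0.128. With numbered rats as a block it missed the threshold (limma adjusted p = 0.0518), and in all it ended in 7 of 16 other settings, among them no normalization, where the differences of Vnn1 and Nudt7 ended too (limma adjusted p = 0.102 and 0.307). Slc25a42 averaged 181 ± 18.8 in episesamin and 135 ± 21.9 in sesamin livers, a difference of 0.42 with a 95% interval of 0.15 to 0.69 (limma adjusted p = 0.142). For Pank3, Coasy and Nudt19 the intervals were -0.40 to 0.05, -0.38 to 0.05 and -0.31 to 0.23.

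Sesamolin gave higher levels than sesamin for the same 3 genes, Vnn1, Nudt7 and Pank1, and lower levels for 0, where 1% of all genes were higher, 0.812% were lower and 1.81% passed in either direction. The difference of Vnn1 was 1.26 ± 0.19 (limma adjusted p = 0.00143), with means of 2200 ± 499 in sesamolin and 908 ± 186 in sesamin livers (SD, n = 5 each). That of Nudt7 was 0.86 ± 0.12 (limma adjusted p = 0.000625), with means of 1215 ± 181 in sesamolin and 668 ± 124 in sesamin livers. That of Pank1 was 0.55 ± 0.10 (limma adjusted p = 0.0098), with means of 1789 ± 226 in sesamolin and 1213 ± 93.7 in sesamin livers. The Pank1 difference ended with median scaling (limma adjusted p = 0.139), with no normalization (0.589) and with only these diets in the fit (0.0621). With no normalization the differences of Vnn1 and Nudt7 ended too (limma adjusted p = 0.0713 and 0.238). These 3 genes and Pank3 did not overlap between sesamolin and sesamin rats, against 4.29% of all genes. The Pank3 difference was -0.24 with an interval of -0.46 to -0.01 and did not pass (limma adjusted p = 0.314). The intervals were 0.06 to 0.60 for Slc25a42, -0.01 to 0.54 for Nudt19 and -0.34 to 0.08 for Coasy.

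Between sesamolin and episesamin, which differ in the additional oxygen and in configuration, 0 of the 7 genes passed by limma, and 0% of all 11576 genes did. The rats of both diets overlapped for each of the 7, and 0.803% of all genes did not overlap. At an unadjusted p below 0.05 there were 663 genes, among them 1 member, Nudt19. The difference was -0.03 for Vnn1 (95% interval -0.43 to 0.37), -0.01 for Nudt7 (-0.26 to 0.24) and 0.11 for Pank1 (-0.11 to 0.33). It was -0.08 for Slc25a42 (-0.35 to 0.19), -0.06 for Pank3 (-0.29 to 0.17) and 0.03 for Coasy (-0.18 to 0.25). Nudt19 averaged 638 ± 87.4 in sesamolin and 512 ± 27.3 in episesamin livers, a difference of 0.31 (0.03 to 0.58; limma adjusted p = 0.867). Each interval for Vnn1 and Nudt7 leaves out a difference as large as that of either lignan from sesamin.

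**Figure D5:**
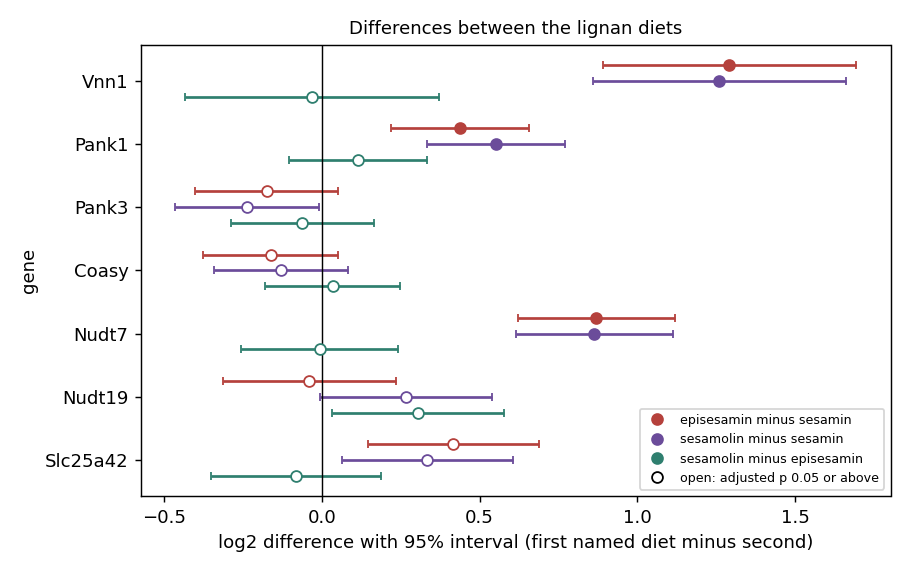
Log2 difference between lignan diets (x axis; the diet named first minus the second) for the 7 CoA genes (y axis), with 95% intervals from the limma fit. Filled points passed at an adjusted p below 0.05. Vnn1, Nudt7 and Pank1 are filled against sesamin, and all points of sesamolin minus episesamin are open.

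Of the other genes of the pathway, Ppcs rose in the episesamin and sesamolin diets and Enpp3 fell in the sesamolin diet. Of 15 listed, 14 were on the array with a symbol and 13 passed the filter: Pank2, Pank4, Ppcs, Ppcdc, Dcakd, Nudt12, Slc5a6, Slc25a16, Slc25a17, Aasdhppt, Enpp1, Enpp3 and Ado. In the sesamin diet 0 of the 13 passed by limma, in episesamin 1 was higher, and in sesamolin 1 was higher and 1 lower. None passed between lignans by limma. Of all genes tested, 0.432%, 5.12% and 6.24% passed in these diets. At an unadjusted p below 0.05 there were 1, 3 and 4 of the 13 in the sesamin, episesamin and sesamolin diets, against 862, 2279 and 2347 of all 11576 genes, and 1 to 2 of the 13 in each pair of lignans. The median log2 change of the 13 was 0.03, 0.11 and 0.13 in the sesamin, episesamin and sesamolin diets. Ppcs, which encodes the enzyme that joins cysteine to phosphopantothenate, had levels of 999, 926, 883, 874 and 668 in sesamin livers and 1262, 892, 1298, 1236 and 838 in episesamin livers. It had 1333, 889, 979, 971 and 1273 in sesamolin livers, against 679, 535, 734, 530 and 548 in lignan-free livers. No episesamin or sesamolin rat overlapped the lignan-free rats, while sesamin rat 5 did. Ppcs rose by 0.85 ± 0.16 (SE, n = 5 per diet) in episesamin livers (limma adjusted p = 0.003) and by 0.84 ± 0.16 in sesamolin livers (limma adjusted p = 0.00308), and stood at 0.52 ± 0.16 in sesamin livers (limma adjusted p = 0.313). Its episesamin and sesamolin rises ended with no normalization between arrays, at 0.60 and 0.63 (limma adjusted p = 0.101 and 0.0923). Enpp3, an ectonucleotide pyrophosphatase, was 746, 643, 691, 847 and 881 in sesamolin livers, against 923, 888, 1044, 1200 and 1002 in lignan-free livers. The log2 change of Enpp3 was -0.41 ± 0.11 (limma adjusted p = 0.0379). That call ended without any of sesamolin rats 1, 2 and 3 and lignan-free rats 3, 4 and 5, with changes of -0.41 to -0.34 and an adjusted p of up to 0.103. Of 16 other settings, 5 ended the Enpp3 call too, with a limma adjusted p of up to 0.112. Of the others, the 3 with the highest levels were Aasdhppt, which transfers phosphopantetheine from CoA to proteins, Enpp1 and Slc25a17, a peroxisomal carrier of CoA and other cofactors. Their log2 changes in sesamolin livers were 0.06 ± 0.09, -0.45 ± 0.17 and 0.24 ± 0.10 (limma adjusted p = 0.78, 0.14 and 0.187).

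Over the 20 arrays, the pattern of Vnn1 was most like those of Hadhb, a subunit of the mitochondrial trifunctional protein (Pearson r of log2 levels 0.984), Ehhadh, the peroxisomal bifunctional enzyme (0.981), and Decr1, a mitochondrial dienoyl-CoA reductase (0.981). For Nudt7 the nearest were Hsdl2 (0.978), Slc25a20, the mitochondrial carnitine-acylcarnitine carrier (0.977), and Acot3, an acyl-CoA thioesterase (0.975). For Pank1 they were Pex19, which acts in the import of peroxisomal membrane proteins (0.952), Abhd1 (0.95) and Hdc, histidine decarboxylase (0.943). For Slc25a42 they were Acadvl, the very long chain acyl-CoA dehydrogenase (0.918), Hsd17b4, a peroxisomal multifunctional enzyme (0.915), and Rab30 (0.915). These values take in the differences between diets, which all the genes share. With the mean of each diet removed, r for these 12 pairs was 0.549 (Nudt7 with Hsdl2) to 0.773 (Pank1 with Hdc). The pairs were picked for the highest r over the same 20 arrays, so high values within diets can follow from that choice.

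Among the members, r between Vnn1 and Nudt7 was 0.961 over 20 arrays and 0.243 within diets. Within diets the highest value was 0.653, between Pank1 and Nudt7, and the next was 0.591, between Vnn1 and Slc25a42. The lowest were -0.619 between Coasy and Nudt7 and -0.562 between Coasy and Pank1. Vnn1 and Pank3 stood at -0.802 over all arrays and -0.517 within diets. These are descriptions over 20 livers in 4 diets, with shared arrays and normalization.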

How the data were processed

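Liver RNA of 20 rats was hybridised to 20 arrays, 5 per diet, and replicates are separate rats. The deposited table holds linear intensities of 31099 probe sets on each array. Their software was not given in the sources used here. Per the labels, biotin-labelled cRNA was made from total RNA of each rat. Of the probe sets, 20832 had 1 symbol in GEO's annotation, which can be old, 436 had several and 9831 were not listed; 20826 remained without controls. No common scale was found between arrays, so values were quantile normalized, an offset of 5.85 (their 20th percentile) was added and log2 was taken. The probe set of highest mean stood for a gene. Genes above 17.8 (the 40th percentile) on at least 5 arrays were kept, 11576 of 14217. limma 3.58.1 in R 4.3.3 fitted 4 diet means with a shared spread (lmFit, eBayes), and the number of arrays limits the precision. The step was tested on simulated data. All members were named. Listed pathway genes were named where they passed, or for the 3 highest levels. The 3 best correlated genes were named for each member that passed the F test. Members and lists were chosen with earlier results of these data known. Rats of the same number in different diets were correlated as a check for pairing. Rats of different numbers were not set beside them, so pairing was not settled. Alternatives were other scalings, offsets, filters, probe set summaries, eBayes settings, array weights, covariates, a block and arrays left out.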

Additional observations from a re-analysis of the deposited data

Results flagged for a closer look

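Enpp1, a pathway gene that is no member, had a low value in lignan-free rat 1. Its level there was 572, and the other 4 lignan-free rats lay between 674 and 711, so that the gap was 0.754 of the range of the 5 rats. This was 1 of 60 groups of 5 rats examined over 15 probe sets, and chance alone gives about 1 such value in 20 groups.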

How the results depend on the processing

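The rises of Vnn1 in the 3 lignan diets and of Nudt7 in the episesamin and sesamolin diets passed under all 16 alternatives and with each of the 20 arrays left out. With arrays scaled by their medians, the count of members past the threshold was 1 in place of 2 in the sesamin diet. With no normalization between arrays it was 1 in the sesamin diet, 2 in the episesamin diet, 2 in the sesamolin diet, 0 for episesamin minus sesamin, 0 for sesamolin minus sesamin and 2 in the F test, against 2, 4, 6, 3, 3 and 4. These scalings moved the median log2 change of all genes against the lignan-free diet, by median scaling to -0.09, -0.13 and -0.10 in the sesamin, episesamin and sesamolin diets, and without normalization to -0.08, -0.25 and -0.22. The share of passing genes that were higher was 26.6% with median scaling and 27.8% without normalization, against 56.8%, in the episesamin diet, and 28% and 25.8%, against 52.6%, in the sesamolin diet. Leaving out 1 array at a time gave counts of 2 to 2, 4 to 5, 4 to 6, 2 to 3, 3 to 3, 0 to 0 and, in the F test, 4 to 5. With rat numbers as a replicate block the counts were 2, 5, 5, 2, 3, 0 and 4, and Nudt19 in sesamolin livers missed at a limma adjusted p of 0.0796. In each comparison 1 to 3 of 5 same-numbered pairs correlated above 0.1 (r from -0.06 to 0.25). Pairs of different numbers were not computed beside them, so these values cannot tell whether the numbers mark a pairing. Sign changes were found only among values that had not passed. For sesamolin minus episesamin, Vnn1 was at 0.0086 with median scaling, 0.012 without normalization, 0.00042 with array weights, 0.028 without the 6 arrays of mean intensity below 200 and 0.0088 with the actin ratio as a covariate, and Nudt7 at 0.039, 0.042, 0.0091 and 0.057 under the first 4 of these. Nudt19 in episesamin livers was at -0.0061 with median scaling and -0.14 without normalization, and against sesamin at 0.011 without the arrays numbered 1. Coasy in sesamin livers was at 0.0042 with array weights and 0.035 without the arrays numbered 1. Aasdhppt was at -0.065, -0.052 and -0.024 with median scaling and -0.054, -0.18 and -0.15 without normalization in the sesamin, episesamin and sesamolin diets, and at -0.00047 and -0.0092 in the sesamin and sesamolin diets without the arrays numbered 1. Slc25a17 was at -0.039 and -0.0086 in the episesamin and sesamolin diets without normalization, and passed at 0.35 and 0.32 with array brightness as a covariate (limma adjusted p = 0.0239 and 0.0289). With 1 array left out, sign changes came within ranges of -0.11 to 0.12 (Vnn1), -0.080 to 0.052 (Nudt7), -0.045 to 0.091 (Coasy) and -0.14 to 0.00044 (Slc25a42) for sesamolin minus episesamin, -0.12 to 0.025 for Nudt19 in episesamin minus sesamin, -0.047 to 0.033 for Coasy in sesamin livers, and -0.0063 to 0.056 and -0.0051 to 0.11 for Aasdhppt in sesamin and sesamolin livers. The cause of these changes was not tested.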
